A study of Mus musculus with 6 samples.

Results

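The 47 genes described here encode the machinery of DNA replication and the enzymes that make its nucleotides, and they were taken by symbol from a table of RNA-seq counts in NIH/3T3 cells. All 47 were found among the 54752 genes of that table, and 46 passed the filter on low counts, as did 9518 genes in all. NIH/3T3 is a line of mouse embryonic fibroblasts, grown here in complete DMEM for 72 h in 3 groups of 2 libraries each. The vehicle group received PBS, the second group 1 ng/ml TGF-β1 plus DMSO, and the third group 1 ng/ml TGF-β1 plus 5 μM BI6727, an inhibitor of the mitotic kinase PLK1. No group received DMSO alone, so effects of DMSO and of TGF-β1 against vehicle cannot be told apart, and no group received BI6727 without TGF-β1. The methods of the study speak of biological replicates but differ on their number, and the labels do not say that the replicates came from separate cultures, so the p-values measure the spread between these libraries, which may be technical.

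Replication starts when the origin recognition complex, with CDC6 and CDT1, loads the MCM2-7 helicase onto DNA in G1 phase, a step that geminin blocks later in the cycle. In S phase CDC45 and the GINS complex turn the loaded MCM ring into the working helicase, polymerase α with primase lays down primers, the RFC complex loads the PCNA ring, and polymerases δ and ε copy the strands. Ribonucleotide reductase, thymidylate synthase, thymidine kinase and dUTPase feed and guard the pool of deoxynucleotides, and CAF-1 and UHRF1 restore nucleosomes and DNA methylation on the new strands. Many of these genes are known to be transcribed under E2F factors as cells enter S phase. In bulk RNA, fewer cells in S phase and less RNA per cell cannot be told apart.

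The libraries held 18362378 to 24452153 counts on genes, and 18911 to 19891 genes had counts. Levels are given as normalized CPM, in which the counts of the tested genes are brought to a common library size by the TMM method. All 9 fibroblast markers examined passed the filter, and their summed level was 8459 to 8779 CPM with vehicle, 7975 to 10545 with DMSO and 8401 to 8438 with BI6727. None of 14 epithelial, endothelial and leukocyte markers passed it, none exceeded 4.51 CPM in any library, and Krt5, Kdr, Adgre1 and Cd3e had 0 counts throughout. The summed level of the 4 endothelial markers was 0.31 to 0.91 CPM with vehicle, 2.89 to 3.77 with DMSO and 2.00 to 2.65 with BI6727. That of the 5 epithelial markers was 0.36 to 0.50, 1.93 to 1.98 and 0.46 to 1.00 CPM, and that of the 5 leukocyte markers 3.74 to 4.69, 2.94 to 2.95 and 3.06 to 3.19 CPM in the same order. The part of these markers in the results was not tested. The 2 libraries with TGF-β1 and DMSO differed more from each other than the replicates of the other groups. Across the 46 genes, the SD of the log2 difference between replicates was 0.276 with DMSO, 0.121 with vehicle and 0.113 with BI6727. This difference in the DMSO group followed gene length, with r = -0.652 across the 46 genes and the same r across all 9518 genes, where genes share the libraries and are not independent. Rpa3, of 1.14 kb, was at 33.3 and 54.5 CPM in the DMSO replicates, and Pole, of 11.1 kb, at 33.2 and 19.1 CPM.

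**Figure D1:**
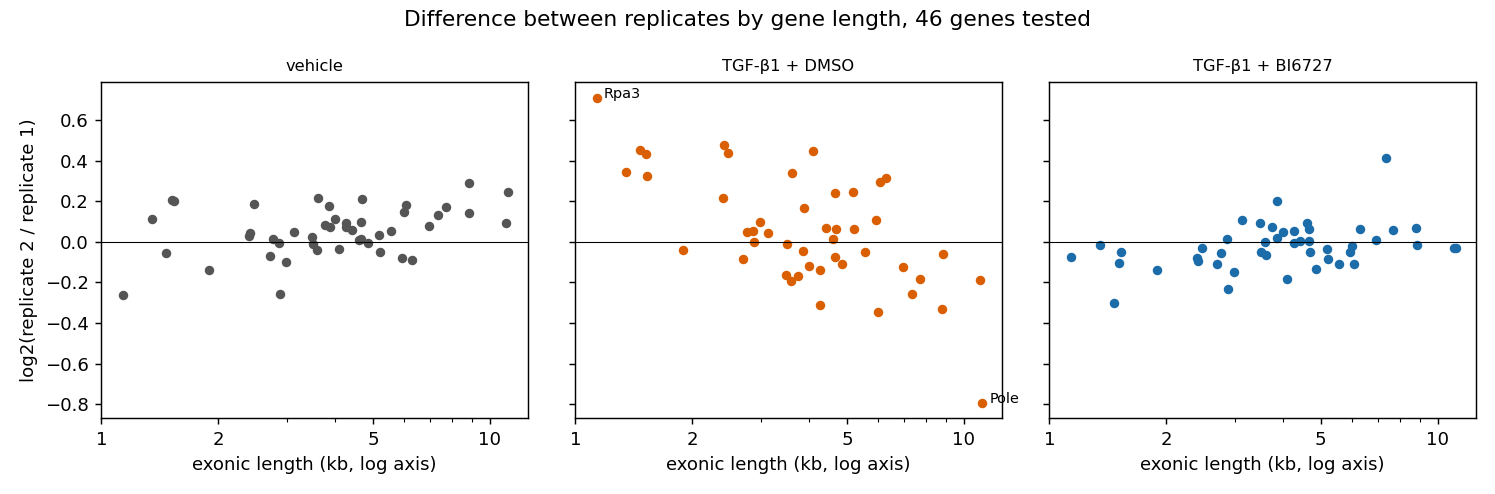
Difference between the 2 replicates of each group (y axis, log2 of replicate 2 over replicate 1) against exonic length (x axis, kb, log axis) for the 46 genes tested, 1 point per gene. In the DMSO group the points fall with length (r = -0.652), and Rpa3 and Pole lie farthest from 0.

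To show the sequences in front of these genes, promoters were read from RefSeq (build GRCm38.p6), which held 46 promoters of 39 of the 47 genes. Prim2, Mcm4, Rfc2, Gins4, Pole, Gins2, Gins1 and Gmnn had no entry. Each promoter ran from 250 bases before to 50 bases after a start. The letters TTTCCCGC, TTTGGCGC, TTTCGCGC or TTTGCCGC, which E2F factors are known to bind, stood on either strand in 15 of the 46 promoters (32.6%) and in 2.26% of all 32851 promoters. CCAAT, the letters of NF-Y, stood in 58.7% against 37.4%, and TTTGAA, found at genes expressed late in the cell cycle, in 10.9% against 17.9%. The promoters of Mcm6, Mcm5 and Pola1 are shown because they hold the E2F letters, and those of Orc6, Rrm2, Pold2 and Tk1 because these genes passed the test described below without them. Each run is 150 bases, 5′ to 3′ on the strand of the gene, and ends before the first transcribed base in RefSeq and in the annotation of the count table. Capitals mark matches on either strand. In Mcm6 the first capital run is TTTGGCGC and the reverse complement of TTTCGCGC, which overlap. A match is a description of the letters and not a site, and no match says only that these letters are not in the window.
Mcm6 (chr1:128359706-128359855, minus strand): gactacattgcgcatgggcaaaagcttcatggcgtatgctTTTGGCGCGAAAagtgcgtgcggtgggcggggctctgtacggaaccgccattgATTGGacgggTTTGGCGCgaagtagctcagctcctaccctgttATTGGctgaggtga
Mcm5 (chr8:75109359-75109508, plus strand): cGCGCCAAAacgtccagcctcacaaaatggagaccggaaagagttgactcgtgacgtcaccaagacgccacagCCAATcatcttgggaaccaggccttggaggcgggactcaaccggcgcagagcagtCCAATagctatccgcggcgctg
Pola1 (chrX:93632156-93632305, minus strand): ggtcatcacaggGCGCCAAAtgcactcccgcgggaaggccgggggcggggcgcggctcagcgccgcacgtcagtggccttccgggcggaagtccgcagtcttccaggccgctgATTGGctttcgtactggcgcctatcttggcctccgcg
Orc6 (chr8:85299482-85299631, plus strand): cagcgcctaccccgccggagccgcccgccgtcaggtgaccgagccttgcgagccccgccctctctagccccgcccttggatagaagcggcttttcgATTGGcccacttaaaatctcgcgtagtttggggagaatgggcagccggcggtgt
Rrm2 (chr12:24708091-24708240, plus strand): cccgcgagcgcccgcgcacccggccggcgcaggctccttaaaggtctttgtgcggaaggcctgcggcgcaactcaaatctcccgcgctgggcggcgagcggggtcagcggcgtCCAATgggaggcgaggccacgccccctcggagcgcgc
Pold2 (chr11:5878293-5878442, minus strand): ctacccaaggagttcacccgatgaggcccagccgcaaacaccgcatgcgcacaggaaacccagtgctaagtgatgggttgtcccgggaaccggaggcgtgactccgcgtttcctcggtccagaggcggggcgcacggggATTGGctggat
Tk1 (chr11:117826093-117826242, minus strand): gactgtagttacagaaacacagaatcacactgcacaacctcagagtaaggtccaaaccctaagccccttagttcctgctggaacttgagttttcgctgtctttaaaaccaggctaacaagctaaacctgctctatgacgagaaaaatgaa

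Levels in vehicle-treated cells were compared between genes per kb of exonic length, the union of all exons of a gene. The union can be longer than the transcripts present, whose lengths were not measured, so ranks and ratios per kb depend on it. Rrm2, the small subunit of ribonucleotide reductase, was highest at 83.7 ± 0.65 CPM per kb (SD, n = 2), followed by Mcm3 at 75.4 ± 3.07, Pcna at 64.1 ± 0.98 and Mcm4 at 63.2 ± 1.18. Pcna and Mcm4 did not differ beyond their spread. Without division by length the vehicle mean of Rrm2 was 232 CPM, below the 341 CPM of Rrm1, the large subunit, with 11.0 kb of exons. The MCM2-7 subunits, which form a ring with 1 copy of each, ran from 25.1 CPM per kb for Mcm2 to 75.4 for Mcm3, a ratio of 3.00, whereas their CPM without division by length spanned a ratio of 1.62. Cdc6, the loading factor, was among the lowest at 5.94 ± 0.15 CPM per kb, with Pole, the catalytic subunit of polymerase ε, at 3.21 ± 0.39 and Fen1, the flap endonuclease, at 2.86 ± 0.53. Fen1 was the gene that failed the filter of 10 CPM in more than 3 libraries. Its values were 6.02 and 7.83 CPM with vehicle, 7.82 and 7.51 with DMSO, and 7.40 and 8.78 with BI6727, and these overlapped between groups. Other genes (Gm10143 and Tmem258) cover 84.2% of its exonic bases, so its counts are uncertain.

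The first comparison asked how the replication genes stood in cells treated with TGF-β1 and DMSO against vehicle. In all, 8 genes passed the test, 5 lower and 3 higher. The lower genes were Tk1, Lig1, Pola1, Pold2 and Prim2, of which Tk1 fell by 37.0% and Prim2 by 25.9%, and the higher genes were Orc6, Cdt1 and Rrm2, with rises of 24.6% to 45.8%. The MCM2-7 helicase genes lay between -0.24 and 0.11 on the log2 scale and none passed. Genes were compared with edgeR's quasi-likelihood test and called at an adjusted p below 0.05, with Benjamini-Hochberg adjustment over all 9518 genes, in 1 fit of the 6 libraries. Of all genes tested, 23.0% were called, 12.0% lower and 11.0% higher, so the share among the 46 replication genes, 17.4%, was below that of all genes. At the study's rule of an adjusted p below 0.01 and a fold change above 2, edgeR called 0 of the 46, against 5.10% of all genes. DESeq2 also called 0 of the 46 at this rule, and its share of all genes there is not given. At an unadjusted p below 0.05 there were 15 of 46, against 37.8% of all genes. The median log2 fold change of the 46 was -0.11 and that of all genes -0.0045, with 28 genes below and 18 above 0. The groups did not overlap in 19 genes that were lower and 13 that were higher, where 33.1% and 29.8% of all genes were so. The 95% interval of the change lay within 2-fold in either direction for 45 of the 46 genes, all but Pole, and within 1.5-fold for 32.

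**Figure D2:**
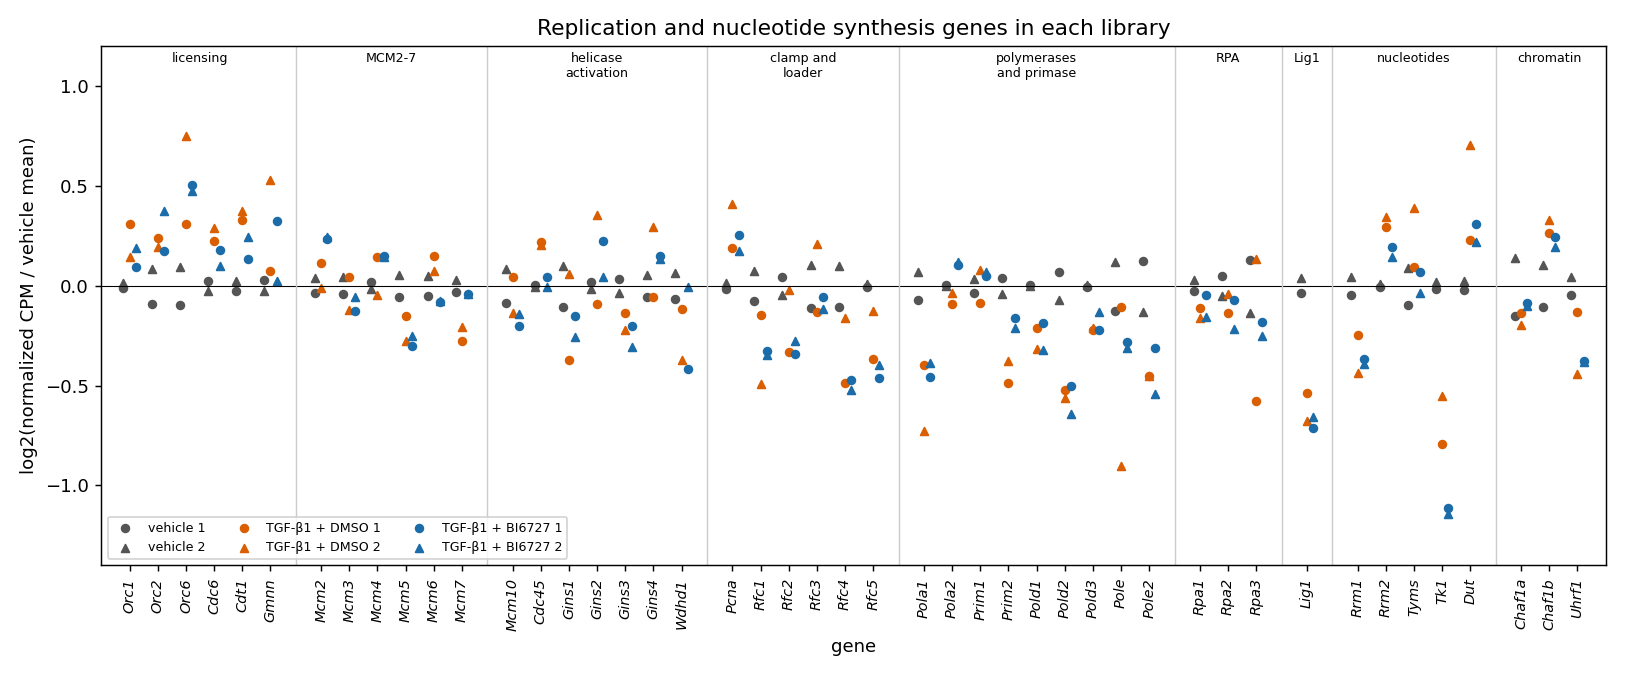
Level of each of the 46 genes in each library (y axis, log2 of normalized CPM over the vehicle mean), ordered by role along the x axis; colours mark groups, circles replicate 1 and triangles replicate 2. Orange and blue points of the licensing genes lie above 0, with those of Lig1 and Tk1 well below it. Those of the MCM2-7 genes lie on either side of it.

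These counts depended on single libraries. Without vehicle replicate 1 or vehicle replicate 2, 0 of the 46 genes were called in either direction, and the share of all genes called was also lower than the 23.0% of the 6 libraries, at 5.4% and 7.02%. The median log2 fold change of the 46 genes was -0.05 without vehicle replicate 2 or without DMSO replicate 1. Without either BI6727 replicate, 3 were lower (Lig1, Pold2 and Tk1) and 0 higher, among 13.2% and 13.1% of all genes. Without DMSO replicate 1, 14 were lower and 10 higher, among 59.6% of all genes called, and without DMSO replicate 2, 13 and 7, among 38.7%. In both of these fits without a DMSO replicate, which hold 1 DMSO library assumed to vary like the other groups, all 8 genes remained called in their direction. When each library's trend on gene length was removed, 7 genes were lower and 5 higher, among 33.6% of all genes. Again all 8 were among them, and the genes gained were Pole2 and Rfc4, lower, and Dut and Chaf1b, higher. DESeq2 kept all 8 and gained Rrm1 and Pole2, lower, and Dut, higher, among 27.5% of all genes. Over the 17 alternatives run, Tk1 and Lig1 were each called in 15, Pold2 in 13, Orc6 in 12, Pola1 in 11, Cdt1 in 10, Prim2 in 9 and Rrm2 in 8. The largest adjusted p ran from 0.0681 for Lig1 to 0.275 for Orc6, and none of the 8 changed direction.

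Among the licensing genes, all 6 stood above vehicle in cells given TGF-β1 and DMSO, with no overlap between the groups. Of all genes tested, 29.8% were higher without overlap. The log2 fold changes of the 6 ran from 0.21 to 0.54, with a median of 0.29. Orc6 and Cdt1 passed the test. Gene positions are those of mm10. Orc6 (chromosome 8, 85299632 to 85308278), the smallest subunit of the origin recognition complex, was at 72.9 and 83.0 CPM with vehicle, 96.5 and 131 with DMSO, and 110 and 108 with BI6727. It rose by 45.8% with DMSO (log2 fold change 0.54, standard error 0.15, adjusted p = 0.0408), although its DMSO replicates were far apart. Cdt1 (chromosome 8, 122568015 to 122573554), which brings the MCM ring to the origin, was at 108 and 112 CPM with vehicle, 139 and 143 with DMSO, and 121 and 130 with BI6727. Both treated groups stood above vehicle, and the rise with DMSO was 27.7% (log2 fold change 0.35, standard error 0.09, adjusted p = 0.0318). Orc2, with the smallest difference of the role, was at 59.5 and 67.1 CPM with vehicle, 74.6 and 72.3 with DMSO and 71.3 and 81.9 with BI6727, and other genes cover 29.8% of its exons. Gmnn, the gene of the inhibitor geminin, had a log2 fold change of 0.32 with a 95% interval of -0.09 to 0.73.

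The 6 MCM2-7 genes differed little between DMSO and vehicle. None was called by the main edgeR fit of 6 libraries, DESeq2 or limma voom in this comparison. In that edgeR fit 1 had an unadjusted p below 0.05, and all 6 intervals lay within 1.5-fold. Mcm7 was lowest, at 184 and 192 CPM with vehicle, 155 and 163 with DMSO and 182 and 183 with BI6727, so that the DMSO group stood apart from both others, with a log2 fold change of -0.24 (interval -0.45 to -0.04, adjusted p = 0.0872). Of its 50-base windows 23.3% occur in transcripts of other genes. Mcm6 was highest, at 194 and 208 CPM with vehicle, 223 and 212 with DMSO and 190 and 191 with BI6727, a log2 fold change of 0.11. Mcm5, whose promoter is printed above, had -0.21 (interval -0.44 to 0.01). With BI6727 against vehicle, Mcm2 had 0.24 (interval 0.02 to 0.46) and Mcm5 -0.28 (interval -0.50 to -0.05). Neither was called there by edgeR, and voom called Mcm2 higher and Mcm5 lower, among 53.4% of all genes.

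The 7 genes that act in turning the loaded ring into a working helicase held none called by the same tools with DMSO against vehicle, and none had an unadjusted p below 0.05. Cdc45 was the highest, at 72.7 and 72.1 CPM with vehicle, 84.1 and 83.4 with DMSO and 74.7 and 72.0 with BI6727. Its replicates lay close together in every group, and its log2 fold change was 0.21 (interval -0.00 to 0.43, adjusted p = 0.139). Wdhd1, which couples polymerase α to the helicase, was the lowest, at 44.4 and 48.7 CPM with vehicle, 42.9 and 35.9 with DMSO and 34.8 and 46.4 with BI6727, and its log2 fold change of -0.24 had an interval of -0.63 to 0.15. The 4 GINS subunits lay between -0.18 and 0.15, and other genes cover 67.3% of the exons of Gins2.

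In the clamp and its loader, none of 6 genes was called by the main edgeR fit, DESeq2 or voom with DMSO against vehicle. In that edgeR fit 1 had an unadjusted p below 0.05. Pcna, the sliding clamp, was at 152 and 156 CPM with vehicle, 175 and 204 with DMSO, and 184 and 174 with BI6727. All 4 treated libraries stood above vehicle, at a log2 fold change with DMSO of 0.30 (interval 0.05 to 0.55, adjusted p = 0.0790), and 19.1% of its 50-base windows occur in the pseudogene Pcna-ps2. Rfc4, a small loader subunit, was at 31.1 and 35.8 CPM with vehicle, 23.9 and 29.9 with DMSO and 24.1 and 23.3 with BI6727, with a log2 fold change of -0.32 (interval -0.68 to 0.05). Eif4a2, on the other strand, covers 12.7% of its exonic bases. Rfc1, the large subunit, had -0.31, Rfc2 -0.17, Rfc3 0.05 and Rfc5 -0.24.

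The polymerase and primase genes formed the role with the lowest median among those of more than 1 tested gene, -0.43. In it 3 of 9 were called lower and 0 higher, where 12.0% of all genes were lower and 11.0% higher. Among the 47 genes, polymerase α, primase and polymerase δ each had 1 subunit called lower, and their other subunits there were not called. Pola1 (chromosome X, 93304767 to 93632155), the catalytic subunit of polymerase α, was at 59.9 and 66.0 CPM with vehicle, 47.8 and 38.0 with DMSO and 45.9 and 48.1 with BI6727. It fell by 31.8% with DMSO (log2 fold change -0.55, standard error 0.14, adjusted p = 0.0285), while its partner Pola2 had a log2 fold change of -0.06 (interval -0.27 to 0.14). Prim2 (chromosome 1, 33453810 to 33669795), the large primase subunit, was at 49.8 and 47.1 CPM with vehicle, 34.6 and 37.2 with DMSO and 43.3 and 41.9 with BI6727. Its DMSO replicates were the lowest of the 6 libraries, and it fell by 25.9% (log2 fold change -0.43, standard error 0.11, adjusted p = 0.0309). Prim1, the small catalytic subunit of primase, was at 75.7 and 79.6 CPM with vehicle, 73.1 and 82.1 with DMSO and 80.2 and 81.4 with BI6727, and its DMSO and vehicle values overlapped (log2 fold change -0.00, interval -0.24 to 0.24). The difference in change between partner subunits was not tested.

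Subunits of polymerase δ stood on both sides of their vehicle level. Pold2 (chromosome 11, 5872180 to 5878292), a regulatory subunit, was at 58.7 and 53.2 CPM with vehicle, 39.0 and 37.9 with DMSO and 39.5 and 35.9 with BI6727. Both treated groups stood below vehicle, and with DMSO it fell by 31.3% (log2 fold change -0.54, standard error 0.12, adjusted p = 0.0166). The catalytic subunit Pold1 had a log2 fold change of -0.26 (interval -0.51 to -0.02, adjusted p = 0.113) and Pold3 of -0.22 (interval -0.50 to 0.06). Pold4, the smallest subunit and not among the 47 genes, was at 32.6 and 31.8 CPM with vehicle, 66.7 and 90.7 with DMSO and 75.0 and 74.4 with BI6727. It rose 2.45-fold with DMSO (log2 fold change 1.29, standard error 0.16, adjusted p = 0.00150). In polymerase ε, Pole2 had a log2 fold change of -0.45 (adjusted p = 0.0645) and Pole one of -0.45 with an interval of -1.02 to 0.12. DESeq2 called Pole2 lower, among 27.5% of all genes, and voom did not.

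Of the 3 RPA genes, which coat single-stranded DNA, none was called by the main edgeR fit, DESeq2 or voom with DMSO against vehicle. In that edgeR fit none had an unadjusted p below 0.05. Rpa3 was lowest at -0.18, with 54.3 and 45.2 CPM with vehicle, 33.3 and 54.5 with DMSO and 43.9 and 41.8 with BI6727, so that its DMSO replicates lay on either side of the other libraries. Rpa2 was highest at -0.09, with 60.8 and 56.6 CPM with vehicle, 53.3 and 57.1 with DMSO and 55.8 and 50.4 with BI6727. Lig1 (chromosome 7, 13277283 to 13311433), the ligase that joins Okazaki fragments, was at 138 and 145 CPM with vehicle, 97.4 and 88.4 with DMSO and 86.2 and 89.6 with BI6727. All 4 treated libraries lay far below both vehicle libraries, and with DMSO it fell by 34.3% (log2 fold change -0.61, standard error 0.10, adjusted p = 0.00498).

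Of the 5 nucleotide synthesis genes, 1 was called lower and 1 higher, where 12.0% of all genes were called lower and 11.0% higher. In none of the 5 did DMSO and vehicle overlap, where 33.1% of all genes were lower and 29.8% higher without overlap. Tk1 (chromosome 11, 117815526 to 117826092), the S-phase thymidine kinase of the salvage route, was at 125 and 128 CPM with vehicle, 72.8 and 86.1 with DMSO, and 58.4 and 57.1 with BI6727. The 3 groups were separate and in descending order, and with DMSO it fell by 37.0% (log2 fold change -0.67, standard error 0.11, adjusted p = 0.00568). Its difference between BI6727 and DMSO was not called by edgeR (adjusted p = 0.569). Rrm2 (chromosome 12, 24708241 to 24714146) was at 231 and 233 CPM with vehicle, 284 and 294 with DMSO and 266 and 256 with BI6727. It rose by 24.6% with DMSO (log2 fold change 0.32, standard error 0.09, adjusted p = 0.0380). Rrm1, the large subunit of the same enzyme, stood the other way, at 330 and 352 CPM with vehicle, 287 and 252 with DMSO and 265 and 260 with BI6727, with a log2 fold change with DMSO of -0.34 (interval -0.58 to -0.10, adjusted p = 0.0517). The ratio of Rrm2 to Rrm1 CPM was 0.698 and 0.662 with vehicle, 0.990 and 1.16 with DMSO and 1.00 and 0.987 with BI6727, so treated cells lay above both vehicle values. Rrm1 spans 11.0 kb and Rrm2 2.77 kb of exons, and the part of the length trend between the DMSO libraries in this ratio was not tested. Dut, the gene of dUTPase, was at 85.4 and 88.1 CPM with vehicle, 102 and 141 with DMSO and 108 and 101 with BI6727, above vehicle in all 4 treated libraries (log2 fold change 0.48, interval 0.12 to 0.85, adjusted p = 0.0603). DESeq2 called Dut higher and Rrm1 lower with DMSO against vehicle, among 27.5% of all genes, and voom called neither. Tyms, which makes thymidylate, was at 87.9 and 99.8 CPM with vehicle, 100.1 and 123 with DMSO and 98.5 and 91.4 with BI6727.

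Of the chromatin genes none was called by the main edgeR fit, DESeq2 or voom with DMSO against vehicle. In that edgeR fit 1 had an unadjusted p below 0.05. Chaf1b, a CAF-1 subunit, was highest, at 62.6 and 72.4 CPM with vehicle, 81.1 and 84.7 with DMSO and 79.8 and 77.2 with BI6727 (log2 fold change 0.30, interval 0.04 to 0.55, adjusted p = 0.0886). Uhrf1, which guides methylation of new DNA, was lowest, at 214 and 228 CPM with vehicle, 202 and 163 with DMSO and 170 and 170 with BI6727 (log2 fold change -0.28, interval -0.56 to 0.00). Of the 50-base windows of Uhrf1, 15.4% occur in other genes. The other CAF-1 subunit, Chaf1a, had -0.17, and other genes cover 52.5% of its exons.

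**Figure D3:**
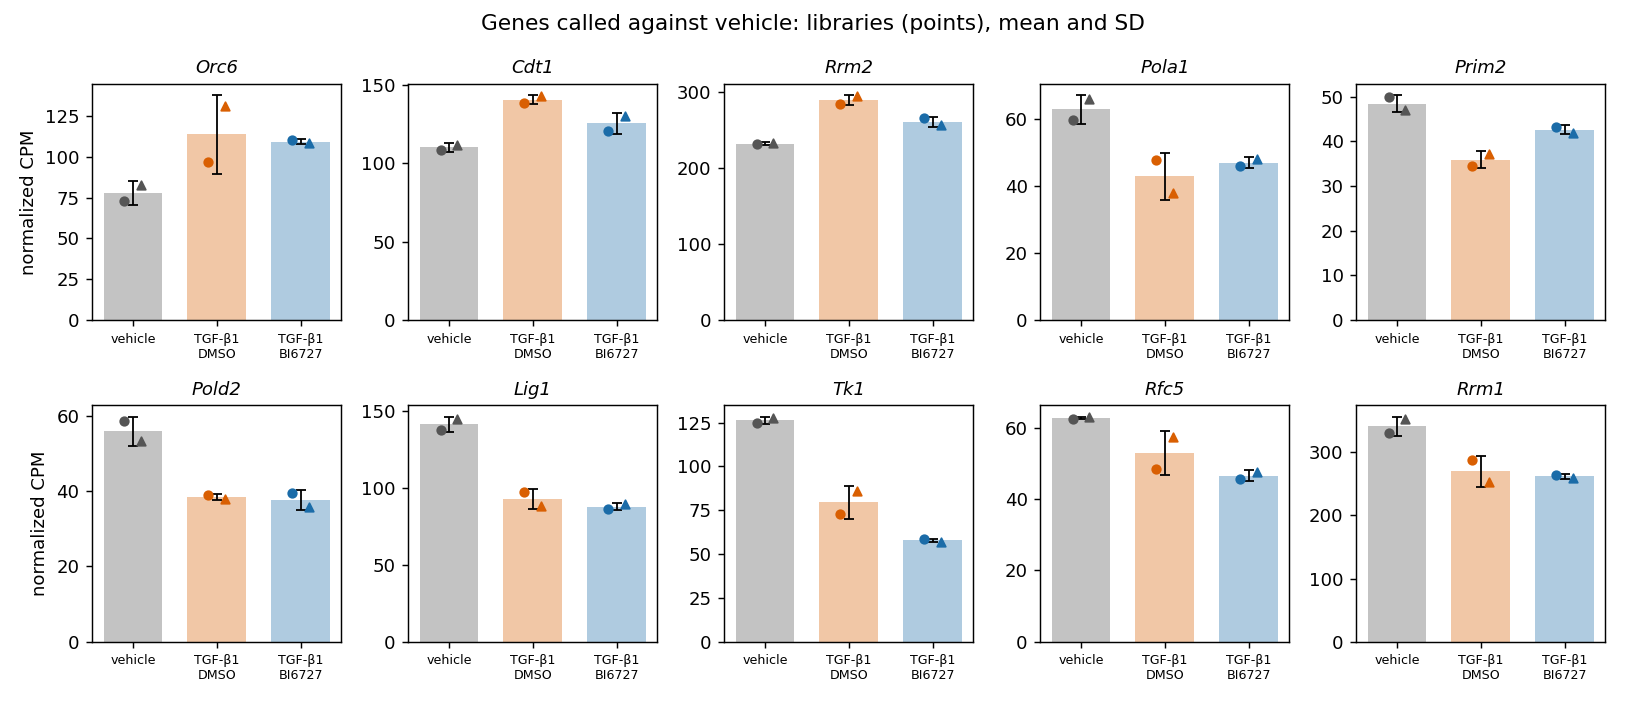
Normalized CPM (y axis, from 0) of the 10 genes called against vehicle in either treated group, with bars for the mean of 2 libraries, error bars for the SD and points for the libraries (circle, replicate 1; triangle, replicate 2). Tk1 steps down from vehicle to DMSO to BI6727, whereas Orc6, Cdt1 and Rrm2 stand above vehicle in both treated groups.

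The second comparison asked what BI6727 added in cells that received TGF-β1. None of the 46 replication genes was called by edgeR, DESeq2 or voom, and edgeR called 0% of all 9518 genes in either direction. At an unadjusted p below 0.05, 1 of the 46 stood out, Tk1, against 6.68% of all genes. Its log2 fold change was -0.46 (interval -0.72 to -0.20, adjusted p = 0.569), and both BI6727 libraries lay below both DMSO libraries. The groups did not overlap in 10 genes that were lower and 5 that were higher, where 17.1% and 17.0% of all genes were so. The median log2 fold change was -0.06, or -0.08 to -0.03 with 1 library left out, and the intervals of all 46 genes lay within 2-fold and those of 44 within 1.5-fold. After Tk1, the lowest were Tyms at -0.23 (interval -0.54 to 0.07) and Dut at -0.22 (interval -0.58 to 0.14), with adjusted p values of 0.764 and 0.816. The log2 fold changes of the 5 nucleotide synthesis genes ran from -0.46 to -0.04, and 0 of them passed the test. The highest were Prim2 at 0.25 (interval -0.02 to 0.51), Mcm7 at 0.20 (interval -0.01 to 0.41) and Mcm2 at 0.19 (interval -0.03 to 0.40). Mcm2 was at 170 and 179 CPM with vehicle, 189 and 173 with DMSO and 205 and 207 with BI6727, above both DMSO libraries.

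The calls of this comparison turned on the DMSO libraries. Without DMSO replicate 1, 9 genes were called lower (Dut, Tyms, Rfc5, Rfc2, Rfc3, Rpa3, Orc6, Tk1 and Gmnn) and 3 higher (Pole, Mcm2 and Pola1), among 31.7% of all genes. Without DMSO replicate 2, 2 were lower (Tk1 and Uhrf1) and 0 higher, among 6.78%. In both of these fits the DMSO group held 1 library, assumed to vary like the other groups, so these calls do not measure its spread. With any 1 of the vehicle or BI6727 libraries left out, 0 were called in either direction.

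The third comparison set TGF-β1 with BI6727 against vehicle, with the same vehicle libraries as the first. There were 5 genes called lower and 0 higher (10.9% of the 46), where 13.2% of all genes were lower, 11.3% higher and 24.5% called. At an unadjusted p below 0.05, 13 were lower and 3 higher, against 37.7% of all genes in either direction. DESeq2 called 8 lower and 1 higher, among 27.8% of all genes, and voom 15 lower and 8 higher, among 53.4%. Tk1 fell by 54.2% (log2 fold change -1.13, standard error 0.11, adjusted p = 0.000575), and was the only one of the 46 past the study's rule, against 5.31% of all genes. Lig1 fell by 37.9% (adjusted p = 0.00277), Pold2 by 32.7% (adjusted p = 0.0125), Rfc5 by 25.7% (adjusted p = 0.0374) and Rrm1 by 23.1% (adjusted p = 0.0341). Rfc5 (chromosome 5, 117378103 to 117389047), a small subunit of the clamp loader, was at 62.5 and 63.0 CPM with vehicle, 48.6 and 57.4 with DMSO and 45.6 and 47.6 with BI6727, lowest with BI6727. Wsb2, on the other strand, covers 10.7% of the exonic bases of Rfc5, and 13.3% of its 50-base windows occur in other genes. Rrm1 lies on chromosome 7, from 102441695 to 102469771. Orc6 had a log2 fold change of 0.49 (adjusted p = 0.0554), Cdt1 of 0.19 and Rrm2 of 0.17, and the first was at the edge of the threshold. The median of the 46 was -0.10, and that of all genes 0.0029. The groups did not overlap in 25 genes that were lower and 15 that were higher, where 38.3% and 38.4% of all genes were so.

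Which libraries entered the fit moved the counts of the third comparison. With only the 4 libraries compared, 15 genes were lower and 8 higher, among 53.9% of all genes, and the same counts came without DMSO replicate 1 or without DMSO replicate 2. All 5 genes remained called in these fits. With vehicle replicate 1 or vehicle replicate 2 left out, 2 genes were lower (Lig1 and Tk1), among 6.49% and 7.74% of all genes. Without BI6727 replicate 1 only Tk1 was called, among 7.05%, and without BI6727 replicate 2 Lig1 and Tk1, among 7.7%. Tk1 was called lower against vehicle in all 17 alternatives of this comparison, at adjusted p values up to 0.0159. Lig1 was called in 16 of them, Pold2 in 13, Rfc5 in 12 and Rrm1 in 12, with largest adjusted p values of 0.0545, 0.136, 0.244 and 0.224. The study's rule lost Tk1 when any 1 vehicle or BI6727 library was left out.

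**Figure D4:**
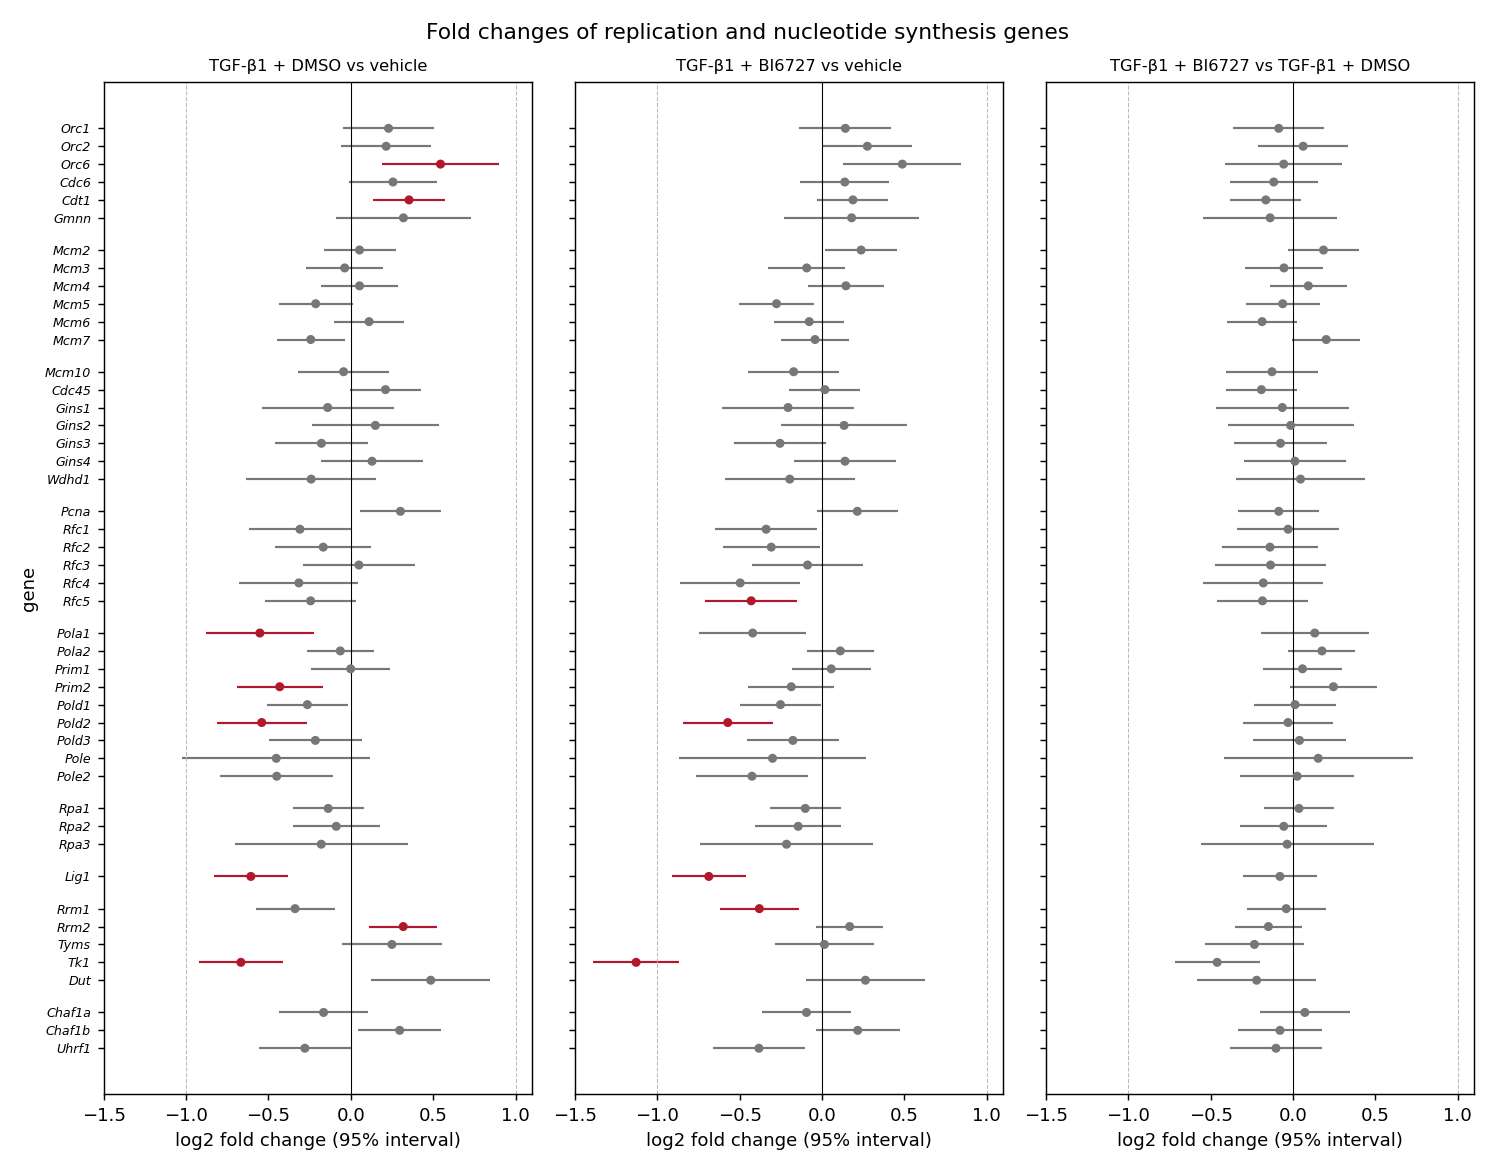
Log2 fold change (x axis) of the 46 genes, ordered by role (y axis), in the 3 comparisons, with 95% intervals as bars, red where the adjusted p was below 0.05 and dashed lines at a 2-fold change. Red appears in 8 genes for DMSO against vehicle, in 5 for BI6727 against vehicle and in none for BI6727 against DMSO.

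Counting the 50 bases after the start, the E2F letters stood in the promoters of 15 genes. With TGF-β1 and DMSO against vehicle their log2 fold changes ran from -0.61 to 0.35, with a median of -0.21, and those of the 23 tested genes without the letters from -0.67 to 0.54, with a median of -0.06. Both sets held genes called in each direction, Lig1 and Pola1 lower and Cdt1 higher with the letters, and Tk1 and Pold2 lower and Orc6 and Rrm2 higher without them. These values are descriptions, with no test.

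Other genes of the same processes, from lists that do not include the 47, gave the wider setting. Of 33 other replication genes tested, 2 were lower and 2 higher with DMSO against vehicle, at a median log2 fold change of -0.12. In that comparison 12.0% of all genes were lower and 11.0% higher. Pold4 was the gene of the 33 past the study's rule, against 5.10% of all genes. Among the 33 other nucleotide synthesis genes tested, 5 were lower and 3 higher, at a median of 0.07. The 16 other genes of chromatin assembly held 2 lower and 0 higher, at a median of -0.03. Mitosis genes, a list of 30 that acts after replication in the cell cycle, stood lower, with 17 lower and 0 higher and a median of -0.38. With BI6727 against vehicle, 20 of the 30 mitosis genes were lower, where 13.2% of all genes were so. Their median was -0.51, and the replication genes stood at -0.10. Nuf2, of the kinetochore, was at 174 and 175 CPM with vehicle, 98.3 and 97.9 with DMSO and 87.8 and 83.5 with BI6727. Nusap1, a spindle protein, was at 151 and 150 CPM with vehicle, 84.9 and 98.8 with DMSO and 62.6 and 64.2 with BI6727. Both passed the study's rule against vehicle with BI6727, at log2 fold changes of -1.02 and -1.25. They were the only 2 of the 30 to do so, against 5.31% of all genes. Between BI6727 and DMSO 0 genes of any of these lists were called by edgeR, and 0% of all genes. An unadjusted p below 0.05 came in 0, 2, 2 and 3 genes of the lists in the order given, against 6.68% of all genes. The difference between lists was not tested.

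**Figure D5:**
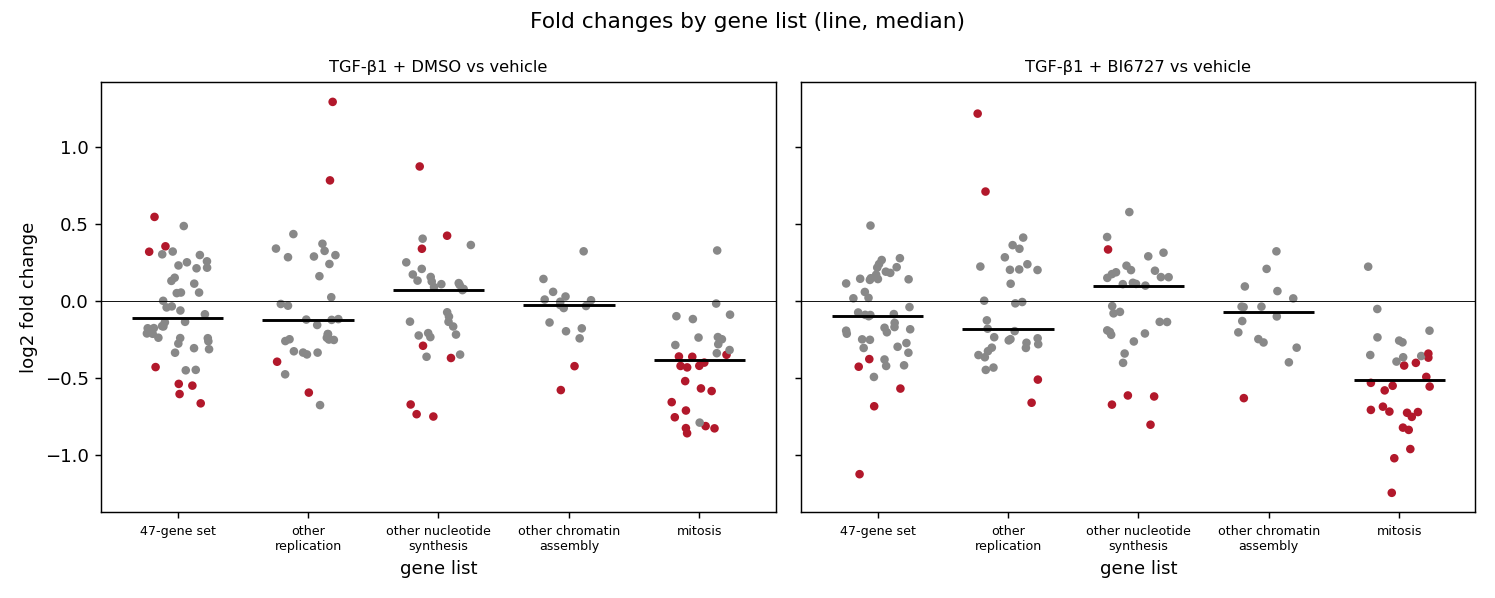
Log2 fold change (y axis) of each tested gene against vehicle in the 47-gene set (46 points) and the other lists (x axis), with TGF-β1 and DMSO on the left and TGF-β1 and BI6727 on the right; lines are medians and red marks an adjusted p below 0.05. The mitosis list lies lowest, with medians of -0.38 and -0.51, against -0.11 and -0.10 in the 47-gene set.

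The summed level of the 47 genes varied little between libraries. It was 4756 and 4969 CPM with vehicle, 4691 and 4730 with DMSO and 4602 and 4556 with BI6727, so that the treated libraries lay below both vehicle libraries. The vehicle libraries differed from each other by more than vehicle replicate 1 differed from any treated library.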

How the data were processed

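The authors deposited read counts per gene, without normalization, from 6 rRNA-depleted libraries of NIH/3T3 cells. Per the study's methods, reads were mapped to mm10 with Subjunc 1.6.4 and counted on Gencode M20 genes with featureCounts. The strand setting is not given in the sources used here, so reads of a gene and of an overlapping antisense gene cannot be told apart. Groups and replicate numbers came from the labels. Of 54752 gene identifiers, 54723 matched a symbol. Genes at 10 or more CPM in more than 3 libraries were tested in R 4.3.3 with edgeR 4.0.16 (TMM, quasi-likelihood test, 1 fit of 6 libraries, 3 residual degrees of freedom, no covariate), with Benjamini-Hochberg adjustment over 9518 genes. The standard error is the log2 fold change divided by the square root of F. With 2 libraries a group, an exact permutation test has a smallest p of 0.333 and was not used. DESeq2 1.42.0 and limma 3.58.1 were alternatives, as were other filters, scalings and samples; the crossed block was added after seeing the data. The deposited counts total 18362378 to 24452153 per library.

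The 47 genes, the other lists and the roles were chosen with earlier results of these data known. Values in every library are given for genes called in any comparison, the lowest and highest of each role with DMSO against vehicle, the 3 lowest and 3 highest with BI6727 against DMSO, and genes that failed the filter; of other lists, genes past the study's rule are named. Other genes named with a fold change were chosen after their values were seen. The same-numbered replicates correlated with r = -0.11, -0.258 and 0.0468 in their deviations from group means, which shows no pairing by number. This check cannot exclude pairing, since the length trend between the DMSO libraries enters 2 of the 3 values. Overlaps come from the exons of the count table, and shared 50-base windows from Gencode M21 transcripts.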

Additional observations from a re-analysis of the deposited data

How the results depend on the processing

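No gene called here changed direction under any alternative run. The counts of genes lower and higher in the DMSO group against vehicle, 5 and 3, became 3 and 1 with voom, 2 and 0 with only the 2 groups compared, and 2 and 0 at an adjusted p below 0.01 with no fold minimum. The higher count was 5 with the length trend removed, and 5 with the replicate block as well. Leaving out 1 library gave 0 to 14 lower and 0 to 10 higher, and a median log2 fold change of -0.119 to -0.0483 in place of -0.11. Between BI6727 and DMSO, leaving out 1 library gave 0 to 9 lower and 0 to 3 higher, in place of 0 and 0. With BI6727 against vehicle, the 5 lower genes became 8 with no filter or with DESeq2, 15 with voom or only the 2 groups compared, 11 with the length trend removed, 9 with the block as well, and 2 at an adjusted p below 0.01. The 0 higher genes became 1 with filterByExpr, with at least 1 CPM in 2 libraries, with no filter and with DESeq2, 8 with voom or the 2 groups alone, and 2 with the length trend removed, alone or with the block. Leaving out 1 library gave 1 to 15 lower, 0 to 8 higher and 0 to 1 by the study's rule. The cause of these moves was not tested. The replicate block gave 3 lower and 1 higher with DMSO, 3 lower and 0 higher with BI6727 against vehicle, and 0 between the treated groups; with the numbers of the DMSO group crossed, a choice made after seeing the data, there were 5 and 3, 7 and 0, and 0. By the labels, the replicates share only a number. The voom quality weights were 0.27 for both DMSO libraries and 1.75 to 2.11 for the others. Standard errors of the 46 genes with DMSO against vehicle ran from 0.09 to 0.24 on the log2 scale, which limits what 2 libraries a group can show.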
